A study of Mus musculus with 2 samples.

Results

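The granulocyte transcript-rich cells were 168 single cells, all from the DKO-severe mouse, that carried 50 or more UMIs of both S100a8 and S100a9, the paired calcium-binding proteins that make up calprotectin. A UMI (unique molecular identifier) marks 1 captured RNA molecule. Cells entered only with 500 or more genes detected and no more than 10% of their UMIs from mitochondrial genes, which left 6765 of 7161 DKO-severe and 7007 of 7189 WT barcodes, so the 168 members stood among 13772 cells. They were 2.48% of the DKO-severe cells (exact 95% binomial interval 2.13 to 2.88), against 0 of 7007 WT cells, where the same interval reached 0.0526%. These are shares of sorted TCRβ+ cells, not of the tissue. The study compared T cells of mice whose regulatory T cells lack Tet2 and Tet3 with T cells of control mice. The WT group was 1 mouse with Foxp3Cre alone and the DKO-severe group 1 mouse with Foxp3-Cre and floxed Tet2 and Tet3 (Tet2/3 fl/fl), both 14 weeks old. Spleen, cervical and inguinal lymph nodes were pooled within a mouse, and the TCRβ+ cells were sorted, tagged with Hashtag 1 (WT) or Hashtag 2 (DKO), and captured together by 10x 3′ chemistry. Both mice carried Cre under the Foxp3 gene, which is meant to act in regulatory T cells and has been described as leaky, and only the DKO-severe mouse carried the floxed Tet2 and Tet3 alleles. DKO-severe names the mice with the larger number of spleen and lymph node leukocytes. With 1 mouse per genotype no difference between genotypes could be tested, and every interval given here covers counting error within 1 library only.

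Neutrophil granulocytes are made in the bone marrow, and under inflammatory stress also in the spleen, through a series of stages that each fill a different set of granules. Promyelocytes make the primary (azurophil) granule enzymes such as Elane, Mpo and Prtn3, myelocytes make the secondary granule proteins such as Ngp, Ltf, Camp and Lcn2, and later stages make tertiary granule enzymes such as Mmp9 and turn on the receptors Csf3r and Cxcr2. Cells leave the cell cycle as they pass these stages, and S100a8 and S100a9 stay among their most abundant transcripts. Granulocytes do not make CD3, the signalling part of the T cell receptor complex, encoded by Cd3d, Cd3e and Cd3g.

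The whole data set held 69692053 UMIs in DKO-severe and 45294779 in WT barcodes, with medians of 8312 and 5687 UMIs per kept cell. The barcodes of the WT and DKO-severe matrices did not overlap (0 shared), every DKO-severe barcode carried more Hashtag 2 than Hashtag 1 counts, and 7186 of 7189 WT barcodes carried more Hashtag 1. Levels below are summed UMIs of a group per 1000000 UMIs of that group (CPM). Tet2 stood at 64.7 CPM in the other DKO-severe cells, 52.0 in WT cells and 56.0 in the members, and Tet3 at 93.8, 104 and 62.2. These 3′ tags do not check the deletion, because the position of the floxed exons was not given in the sources used here.

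The promoters of the genes that chose and split the members are shown because the counts of S100a8 and S100a9 followed each other from cell to cell (Spearman correlation 0.98 over the 168 members, a description) and those of Ngp and Retnlg set the split. The sequences are RefSeq's (GRCm38.p6), 5′ to 3′ on the gene's strand, up to 250 bases before the start, with bases inside the annotated gene removed. S100a8 lies at chr3:90668821-90668977 on the plus strand (157 bases), S100a9 at chr3:90695722-90695971 on the minus strand (250 bases), Ngp at chr9:110419558-110419746 on the plus strand (189 bases) and Retnlg at chr16:48872358-48872607 on the plus strand (250 bases). Capitals mark matches, on either strand, to the C/EBP pattern TTNNGNAA or the PU.1 core GAGGAA.
S100a8: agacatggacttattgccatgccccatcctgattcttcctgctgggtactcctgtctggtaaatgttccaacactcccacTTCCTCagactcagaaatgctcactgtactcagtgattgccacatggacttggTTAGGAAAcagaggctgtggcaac
S100a9: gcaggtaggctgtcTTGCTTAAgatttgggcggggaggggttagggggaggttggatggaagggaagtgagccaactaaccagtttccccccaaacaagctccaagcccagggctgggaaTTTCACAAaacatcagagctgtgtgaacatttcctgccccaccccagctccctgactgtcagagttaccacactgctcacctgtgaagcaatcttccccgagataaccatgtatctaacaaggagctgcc
Ngp: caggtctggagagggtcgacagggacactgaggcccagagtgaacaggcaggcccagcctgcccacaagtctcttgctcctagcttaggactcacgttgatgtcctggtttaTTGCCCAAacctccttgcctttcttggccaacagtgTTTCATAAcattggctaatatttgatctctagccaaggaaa
Retnlg: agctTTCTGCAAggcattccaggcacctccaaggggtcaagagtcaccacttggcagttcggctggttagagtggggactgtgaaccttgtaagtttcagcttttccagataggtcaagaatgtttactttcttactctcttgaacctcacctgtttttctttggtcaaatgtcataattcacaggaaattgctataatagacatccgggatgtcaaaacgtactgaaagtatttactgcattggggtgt
The C/EBP pattern matched 1 time in S100a8, 2 times in S100a9, 2 times in Ngp and 1 time in Retnlg, and the PU.1 core matched 1 time, in S100a8. Of all 32851 promoters in the table, 36.8% of windows of 250 bases held the C/EBP pattern and 23.3% the PU.1 core. At the length of the S100a8 window the shares were 27.1% and 15.3%, and at that of the Ngp window 31.1% and 17.9%. These matches describe the letters only.

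S100a8 (GENCODE vM21, mm10, chr3:90668978-90670035, plus strand) ranged from 55 to 4408 UMIs per member with a median of 1630, and S100a9 (chr3:90692632-90695721, minus strand) from 61 to 5462 with a median of 2203. Both genes together took a median of 26.6% of a member's UMIs. These values chose the members and are given as a description. The number of DKO-severe cells ran from 190 cells at 5 UMIs of both genes to 180 at 20, 156 at 100 and 127 at 500, while WT held 1 cell at 5 UMIs and 0 at 10 or more. The 5 members nearest the minimum carried 55 to 59 UMIs of S100a8 and 61 to 147 of S100a9. The 5 nearest cells outside it carried 40 to 47 and 43 to 97, with 5 to 76 Cd3 UMIs, and 13 of the 22 cells with a lower count of 5 to 49 carried 10 or more Cd3 UMIs.

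**Figure D1:**
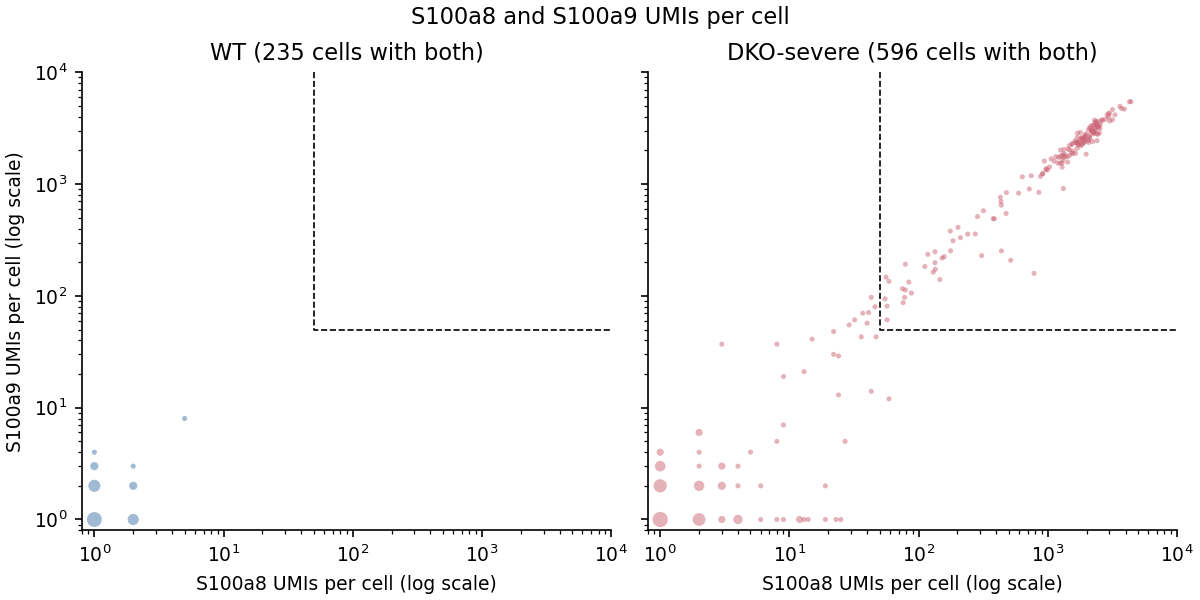
S100a8 against S100a9 UMIs per cell (log axes) in WT and DKO-severe cells with at least 1 UMI of both genes, with larger points where several cells share a position and dashed lines at the minimum of 50 UMIs. No WT point (235 cells) passed the minimum, and 168 of the 596 DKO-severe cells did, most of them above 500 UMIs of both genes.

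The members carried the other defining granulocyte transcripts, which the rule did not use. Retnlg, a resistin-like secreted protein, was detected in 150 of the 168 members, Ngp in 143, Csf3r, the G-CSF receptor, in 123, Cxcr2, the receptor for neutrophil-attracting chemokines, in 143, the integrin Itgam (CD11b) in 159 and Ly6g, the surface protein used to stain neutrophils, in 127. Among the other 6597 DKO-severe cells, Itgam was detected in 6.81% and Ly6g in 0.409%. Camp, an antimicrobial peptide precursor, took 2.54% of all UMIs of the members, Ngp 2.48% and the iron-scavenging protein Lcn2 1.43%, behind S100a9 at 11.6% and S100a8 at 8.68%.

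Defining markers of eosinophils, basophils, mast cells and B cells were low or absent in the members, and T cell transcripts were present in some of them (described below). Of the eosinophil list, Epx, Prg2, Prg3, Il5ra and Alox15 were at 0 UMIs, and of the basophil and mast cell list, Mcpt8, Cpa3, Fcer1a and Prss34 were at 0. The whole eosinophil list summed to 23.8 CPM in the members and 17.8 in the other DKO-severe cells, so it was not lower. The basophil and mast cell list summed to 9.85 and 24.2. Csf1r, the macrophage growth factor receptor, gave 47 UMIs in 19 members and the complement gene C1qa 16 UMIs in 4, whereas Lyz2, a lysozyme shared by monocytes and granulocytes, was detected in 159 members at 6773 CPM. The B cell genes Cd79a and Ms4a1 gave 2 UMIs and 1 UMI in all members, and Ebf1 gave 44 UMIs in 11. The whole B cell list summed to 37.7 CPM in the members and 550 in the other DKO-severe cells. Of the monocyte list, Lyz2 and Ly6c2 were higher and Ccr2 and Ms4a6c lower than in the other DKO-severe cells, and the lower calls of Ccr2 and Ms4a6c were lost when S100a8 and S100a9 were left out of the totals. The summed monocyte list stood at 7770 CPM, most of it Lyz2, against 8908 in 125 DKO-severe cells chosen by Lyz2 and Csf1r. The T cell receptor and CD3 list summed to 1781 CPM in the members. The NK cell list summed to 1526 CPM, of which Tyrobp, an adaptor gene that myeloid cells also use, gave 1355 in 164 members, while Nkg7 and Gzmb were lower than in the other DKO-severe cells. The haemoglobin gene Hbb-bs was found in 26 members, with 51.4% of its UMIs in 1 cell.

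Genes with 100 or more UMIs over both sides of a comparison and a mean of 20 CPM or more were compared (called tested below), with a 2-fold limit and no p-value, since cells of 1 mouse are not replicates. Against the other 6597 DKO-severe cells, the members were higher by at least 2-fold in 595 of 6120 genes (9.72%) and lower in 1438 (23.5%), with a median log2 ratio over all genes of -0.53. This contrast contains the rule, so its counts describe the members. Leaving S100a8 and S100a9 out of the totals moved that median to -0.20 and the counts to 836 higher and 796 lower, so that 51.2% in place of 29.3% of the called genes were higher. The largest ratios belonged to neutrophil granule and acute-phase genes. Ngp stood at 24791 CPM in the members and 5.99 in the other cells, Camp at 25425 and 7.44, Ltf (lactoferrin) at 5583 and 1.64, Lcn2 at 14298 and 6.80, and Retnlg at 3373 and 2.12. Orm1, an acute-phase glycoprotein, gave 525 UMIs in 87 members and 2 UMIs in the other cells. Stfa1, a protease inhibitor of the stefin A family, gave 349 UMIs in 19 members and 0 in the other cells, and Olfm4, a secondary granule glycoprotein, gave 243 UMIs in 6 members with 42.4% of them in 1 cell.

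Most genes of every granule list were higher in the members, beside 9.72% of all genes tested that were higher and 23.5% that were lower. Some listed genes passed the filter only through UMIs of the members (Olfm4 with 243 against 2 UMIs), so these counts are a description. Of the 12 secondary granule, 16 tertiary granule and maturation, 8 primary granule, 21 receptor, 6 oxidase and 10 transcription factor genes listed, 12, 15, 7, 17, 6 and 8 were tested. All 12 secondary granule genes were higher, as were 12 of 15 tertiary granule and maturation genes, 6 of 7 primary granule genes, 15 of 17 granulocyte receptors, 5 of 6 NADPH oxidase subunits and 5 of 8 transcription factors, including Cebpe, the factor of the secondary granule stage, at 376 against 0.349 CPM. Cst7 was the 1 primary granule gene lower, at 77.1 against 171 CPM, and within 2-fold when S100a8 and S100a9 were left out of the totals. It is also made by cytotoxic lymphocytes. All 7 T cell receptor and CD3 genes and all 16 other T cell genes were lower under both totals, with median log2 ratios of -1.69 and -1.75. The genes with the lowest ratios were Gzma, the B lineage genes Cd79a, Mzb1, Jchain, Cd79b, Ly6d and Ebf1, Klrk1, Cd8a and Cd8b1, and each gave 49 UMIs or fewer in the 168 members.

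The members divided into a larger group with secondary granule transcripts and a smaller one with late-stage transcripts. A member was called immature-type where its Ngp, Ltf and Camp UMIs together exceeded its Retnlg and Csf3r UMIs, and mature-type otherwise, and the names stand for this split alone. The immature-type numbered 124 of 168 (73.8%, interval 66.5 to 80.3) and the mature-type 44, and 6 members lay within 2-fold of equality. Immature-type members carried a median of 590.5 Ngp UMIs (2 to 1675), 559.5 Camp UMIs (15 to 1886) and 125 Ltf UMIs (0 to 593), whereas in mature-type members all 3 medians were 0, with highest values of 137, 104 and 27. Retnlg had a median of 7 UMIs (0 to 514) in immature-type and 72.5 (0 to 411) in mature-type members, and Csf3r medians of 1 (0 to 14) and 7.5 (1 to 18). The ranges of all 5 genes overlapped between the types.

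**Figure D2:**
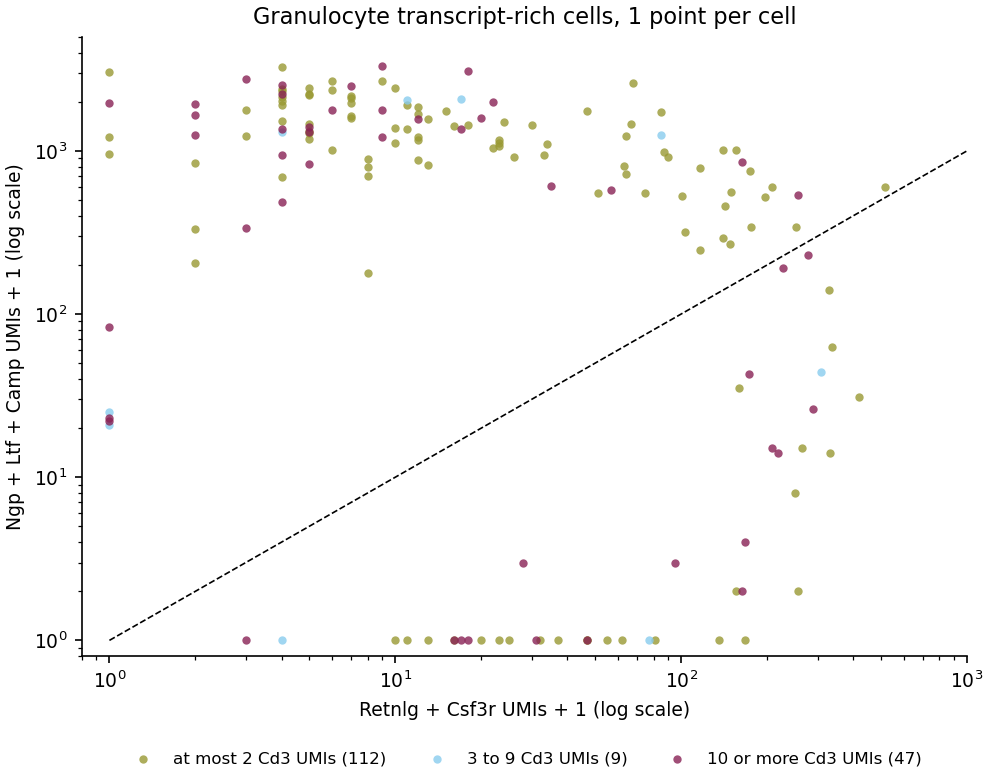
Ngp, Ltf and Camp UMIs plus 1 against Retnlg and Csf3r UMIs plus 1 (log axes) in each of the 168 members, coloured by Cd3 UMIs, with the dashed line at equal counts. The 124 immature-type members lie above the line and the 44 mature-type members on or below it, and members with 10 or more Cd3 UMIs occur on both sides.

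Size and S100 content differed along with the split. Immature-type members held a median of 15522 UMIs (3162 to 123750) and 2726 genes, and mature-type members 6308 UMIs (2209 to 49485) and 1697.5 genes. S100a8 and S100a9 together gave a median of 4434.5 UMIs in immature-type and 622.5 in mature-type members. Per cell, S100 UMIs and Ngp, Ltf and Camp UMIs had a Spearman correlation of 0.93 over the 168 members and 0.88 within the immature-type, and S100 and Retnlg plus Csf3r UMIs one of 0.88 within the 44 mature-type members, where total UMIs per cell also vary.

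Outside the 5 genes of the split, 345 of 3823 genes (9.02%) were at least 2-fold higher and 705 (18.4%) lower in immature-type than in mature-type members, with a median log2 ratio of -0.33. Without the split genes, S100a8 and S100a9 in the totals, the median was -0.01 and the counts were 483 and 349, so that 58.1% in place of 32.9% of the called genes were higher and no called gene changed direction. T cell transcripts moved with this contrast, since 4 of 7 T cell receptor and CD3 genes and 8 of 13 other T cell genes were lower in the immature-type, and 0 and 3 with the other totals. Their part in the other counts was not tested, and the contrast was therefore also made among the 112 members with at most 2 Cd3 UMIs, 87 immature-type and 25 mature-type. There, 399 of 1632 genes (24.4%) were higher and 376 (23.0%) lower, with a median of -0.03. This restriction was chosen after the values had been seen.

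Primary granule proteases were found almost only in immature-type members. Neutrophil elastase, Elane, gave 968 UMIs in 21 of 124 immature-type members and 0 in 44 mature-type members (at least 54.3-fold higher against a floor of 3 UMIs over the group). Proteinase 3, Prtn3, gave 1484 UMIs in 45 immature-type members and 3 UMIs in 1 mature-type member, Ms4a3 gave 490 in 60 and 0 in the mature-type, and myeloperoxidase, Mpo, gave 273 in 9 and 0. Single cells carried much of this signal, with 49.6% of Elane, 56.8% of Mpo and 84.2% of cathepsin G (Ctsg) UMIs in the 1 highest cell. Serpinb1a, an inhibitor of these proteases, was spread more evenly at a median of 16.5 UMIs (0 to 104) in 121 of 124 cells against 0 (0 to 10) in 7 of 44. In all, 6 of 7 primary granule genes were higher, beside 9.02% of all genes tested. Among members with at most 2 Cd3 UMIs 6 of 6 were higher, beside 24.4%. Elane, Mpo, Ctsg and Ms4a3 were tested only through their immature-type UMIs, so these counts are a description. The ficolin gene Fcnb followed the same order, with 1026 UMIs in 73 immature-type members and 1 UMI in the mature-type.

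Of the 9 secondary granule genes outside the split, 7 were higher in the immature-type and 1 was lower. Over all genes tested the shares were 9.02% and 18.4%. Among members with at most 2 Cd3 UMIs, 6 of 8 were higher and 0 were lower, beside 24.4% and 23.0%. The chitinase-like protein Chil3 had a median of 61.5 UMIs (1 to 346) in immature-type and 0 (0 to 54) in mature-type members, a log2 ratio of 4.52 (4.19 to 4.86). Lcn2 had medians of 330.5 (1 to 899) and 14.5 (0 to 160), a ratio of 2.56 (2.47 to 2.64), and the membrane-binding protein Anxa1 medians of 82.5 (0 to 274) and 5 (0 to 34), a ratio of 2.29 (2.13 to 2.44). These genes were still found in most mature-type members, Lcn2 in 39 of 44 and Anxa1 in 39 of 44, while Chil3 was found in 9. The collagenase Mmp8 ran the other way at 361 against 795 CPM, a ratio of -1.14 (-1.32 to -0.95). It was -0.95 among members with at most 2 Cd3 UMIs, and it was also within 2-fold when the split genes and S100 genes were left out of the totals.

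Among tertiary granule and maturation genes, more were higher in the mature-type than in the immature-type. Of 13 tertiary granule and maturation genes outside the split, 7 were lower in the immature-type and 2 were higher (Ifitm6 and Wfdc21), or 6 and 3 with the other totals, beside 18.4% and 9.02% of all genes tested. Over all members, Mmp9, Hp, Msrb1 and Lrg1 lay within 2-fold. Among members with at most 2 Cd3 UMIs, 9 were lower and 1 (Ifitm6) was higher, beside 23.0% and 24.4% of all genes tested. The 9 included Mmp9 and Msrb1, so these 2 genes passed the 2-fold limit there. The lectin receptor Clec4d gave a median of 3.5 UMIs (0 to 9) in 41 of 44 mature-type members and 0 (0 to 6) in 18 of 124 immature-type members, at 422 and 13.1 CPM. Cxcr2 stood at 639 and 156 CPM, and the protease inhibitor Slpi at 1120 and 275. Over all members, the gelatinase Mmp9 stood at 733 and 461, within 2-fold (log2 ratio -0.67, -0.85 to -0.48). The haptoglobin gene Hp stood at 953 and 1694 (log2 ratio of immature-type over mature-type 0.83). Ly6g (299 and 383 CPM) and Itgam (344 and 448) also lay within 2-fold.

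Of 16 receptor genes outside the split, 8 were higher in the mature-type and 0 in the immature-type, beside 705 (18.4%) and 345 (9.02%) of all genes tested. With the other totals 7 were higher in the mature-type and 1 in the immature-type. The 8 were Il1r2, Cxcr2, Fcgr4, Selplg, Clec4e, C5ar1, Fpr1 and Trem1, which include receptors for interleukin 1, chemokines, antibodies, complement and formyl peptides and the selectin ligand Selplg. Fpr1 was closest to the 2-fold limit at 87.2 against 43.3 CPM, and C5ar1 stood at 335 against 121. Of the NADPH oxidase, which makes reactive oxygen, Cybb, Cyba and Ncf1 were higher in the immature-type and Ncf4 and Rac2 lay within 2-fold. Among members with at most 2 Cd3 UMIs, Cybb stood at 1495 CPM in 87 of 87 immature-type and 71.7 in 6 of 25 mature-type members.

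Of 10 listed transcription factors, 7 were tested, of which 1 was higher (Cebpe) and 3 were lower (Cebpb, Junb and Klf6) in the immature-type, beside 9.02% and 18.4% of all genes tested. Cebpe gave a median of 6.5 UMIs (0 to 48) in 102 of 124 immature-type members and 8 UMIs in 5 of 44 mature-type members, a log2 ratio of 4.53 (3.55 to 5.75). Cebpb, the C/EBP factor of inflammatory and late granulopoiesis, ran the other way with medians of 3 (0 to 28) and 9 (0 to 41), at 246 and 1033 CPM. Junb was detected in all 44 mature-type members (2 to 26 UMIs) and in 95 of 124 immature-type members, at 1085 and 158 CPM. Spi1, which encodes PU.1, lay within 2-fold at 392 and 516 CPM, as did Cebpd at 281 and 248 and Runx1. The same 4 genes were called among members with at most 2 Cd3 UMIs. With the other totals, 2 in place of 3 were lower.

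Several transcripts of inflammation and interferon response were higher in the mature-type. The cytokine gene Il1b gave a median of 7 UMIs (0 to 39) in 36 of 44 mature-type members and 24 UMIs in 9 of 124 immature-type members, a 98.3-fold difference in CPM (log2 ratio -6.62, -7.28 to -6.02). The chemokine gene Ccl6 gave 295 UMIs in 35 mature-type and 16 UMIs in 12 immature-type members, and Ifitm1, an interferon-induced membrane protein, 1593 UMIs in 42 and 89 UMIs in 25. Wfdc17, Sirpb1b, Il13ra1, Pla2g7, Marcks and Dusp1 completed the 10 lowest ratios with Clec4d. Of 5 genes of the interferon list tested, Isg15, Oasl2 and Ifitm1 were lower in the immature-type, beside 18.4% of all genes tested. Ifitm3 lay within 2-fold at 1484 and 1674 CPM. Of the 7 inflammatory mediators tested, Il1b, Cxcl2 and Ccl6 were lower in the immature-type and Ccl3 and Ccl4 higher, beside 18.4% and 9.02%. Ccl3 and Ccl4 stood at 117 and 268 CPM in members with 10 or more Cd3 UMIs against 6.09 and 5.41 in those with at most 2. The survival gene Mcl1 was detected in all 44 mature-type members at 1007 CPM, against 294 in the immature-type.

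**Figure D3:**
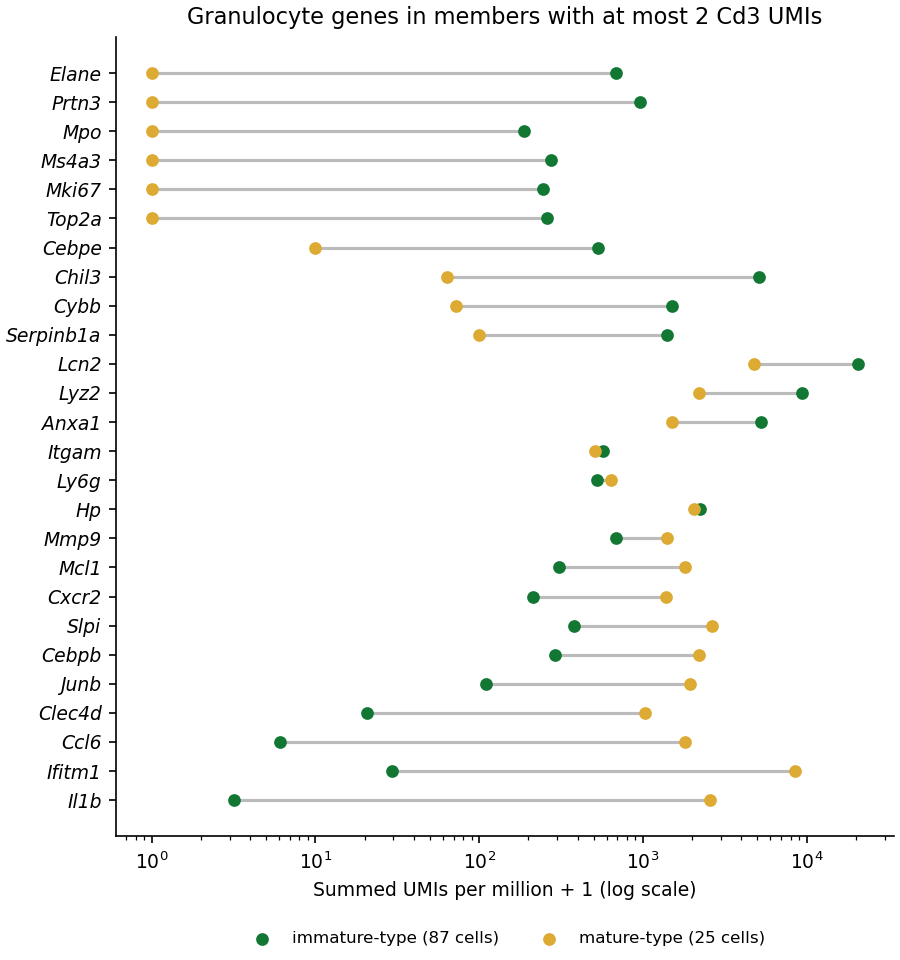
Summed CPM plus 1 (log axis) of 26 genes in the 87 immature-type and 25 mature-type members with at most 2 Cd3 UMIs. Genes of primary granules, the cell cycle and secondary granules stand to the right in the immature-type, Itgam, Ly6g and Hp nearly coincide, and genes from Mmp9 to Il1b stand to the right in the mature-type.

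Cell cycle transcripts were found mainly in the immature-type. All 10 proliferation genes were higher, beside 9.02% of all genes tested. Among members with at most 2 Cd3 UMIs 9 of 9 were higher, beside 24.4%. Some were tested almost only through immature-type UMIs (Birc5 with 420 against 3 UMIs over all members), so these counts are a description. Of the immature-type, 46 of 124 (37.1%, interval 28.6 to 46.2) held 3 or more UMIs of Mki67 and Top2a, genes active in dividing cells, against 1 of 44 mature-type members. Among members with at most 2 Cd3 UMIs the counts were 25 of 87 and 0 of 25. The limit of 3 is in raw UMIs, and immature-type members held more UMIs per cell. The part of that difference in these counts was not tested. The histone gene Hist1h1b gave 1042 UMIs in 37 immature-type and 4 UMIs in 3 mature-type members. All 17 immature-type members with 10 or more UMIs of Elane, Mpo, Prtn3 and Ctsg together were among the cycling cells. They held up to 1279 of these UMIs in 1 cell and a median of 31553 UMIs in all. Ly6g was detected in 7 of the 17, in 24 of the 29 other cycling immature-type members and in 74 of the 78 that were not cycling.

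Ordered by the log2 ratio of Ngp, Ltf and Camp to Retnlg and Csf3r UMIs (with 1 added to both), the members differed in gene levels from band to band. In the 57 members above 7 units, Chil3 stood at 5061 CPM, Cebpe at 542, Mmp8 at 23.7 and Cxcr2 at 87.4, and 38 cells were cycling. In the 41 members between 4 and 7 these levels were 3274, 338, 241 and 154, and 8 cells were cycling. In the 26 members between 0 and 4 they were 1150, 124, 2370 and 514, and 0 cells were cycling. In the 44 mature-type members they were 179, 18.9, 795 and 639. Over members of all Cd3 counts, Mmp8, Mmp9 (1946 CPM), Ly6g (961) and Itgam (881) were thus highest in the band from 0 to 4. The mature-type band pools members that differ in such levels. Its tertiary granule and maturation list summed to 51174 CPM in 25 members with at most 2 Cd3 UMIs. In 16 members with 10 or more it summed to 12627 CPM. Whether the 4 genes were also highest in that band among members with few Cd3 UMIs was not tested. Lcn2 stood between 16010 and 16658 in the first 3 bands and at 2759 in the mature-type, whereas Il1b stood between 7.23 and 14.3 in those bands and at 936 in the mature-type. The order uses the split genes themselves and summed counts, so it is a description.

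Cd3 UMIs fell into a large group of members at or near 0 and a smaller group at 10 or more. Of the 168 members, 58 had 0 UMIs of Cd3d, Cd3e and Cd3g together, 41 had 1, 13 had 2, 9 had 3 to 9 and 47 had 10 or more. The share with any Cd3 UMI was 65.5% (57.8 to 72.6), 83 of 124 immature-type and 27 of 44 mature-type members. Free RNA in droplets can also give such UMIs, and its amount was not measured here. Among 360 DKO-severe cells chosen by the B cell genes Cd79a and Ms4a1, 50.8% had a Cd3 UMI at a median of 6576 UMIs per cell, against 13442.5 in the members. After thinning to 3000 UMIs per cell the shares were 41.1% in 163 members, 39.5% in 352 of those B cells, and 78.4% in 125 cells chosen by Lyz2 and Csf1r. The thinned shares were 37.9% in the immature-type and 53.8% in the mature-type. B cells do not make CD3, so the share of members with any Cd3 UMI is no measure of how many express it, and the part of free RNA in it was not tested. At 10 or more Cd3 UMIs the shares were 28.0% (21.3 to 35.4) in the members, 19.4% in the B cells, 79.2% in the cells chosen by Lyz2 and Csf1r (median 23266 UMIs per cell) and 89.2% in 5986 T cells, which were chosen by having a Cd3 UMI.

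**Figure D4:**
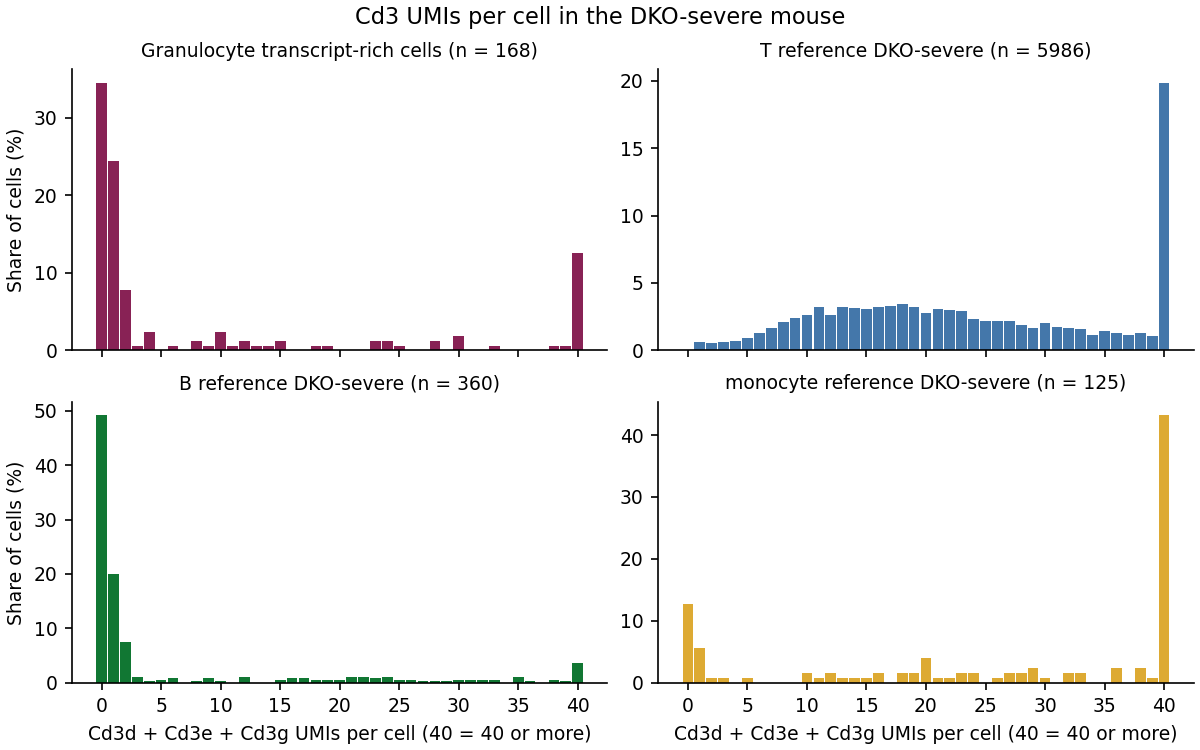
Share of cells (%) by Cd3d, Cd3e and Cd3g UMIs per cell, with 40 standing for 40 or more. Shown are the 168 members, DKO-severe T cells (5986) and B cells (360) chosen by marker genes, and a monocyte reference. That reference is the 125 cells chosen by Lyz2 and Csf1r, of which 79.2% held 10 or more Cd3 UMIs. The members peak at 0 with a separate tail above 10, the B cells have the same 2 parts, and the T cells spread broadly around 20 beside the pooled bar at 40 or more.

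Comparing members with and without a Cd3 UMI, 751 of 3827 genes (19.6%) were at least 2-fold higher with Cd3 and 39 (1.02%) lower, with a median log2 ratio of 0.32. All 13 other T cell genes tested were higher, among them the T cell adaptor gene Skap1 at 499 against 14.3 CPM, and of 15 tertiary granule and maturation genes 6 were lower. The T cell genes were tested almost only through UMIs of the side chosen by Cd3 (Skap1 with 1120 against 10 UMIs), so their count is a description. The highest ratios belonged to T cell genes such as Ikzf2, Tox, Maf, Icos and Sh2d1a, and the lowest to late granulocyte genes such as Il1b, Prok2, Fpr1 and Clec4d. The 47 members with 10 or more Cd3 UMIs against the 112 with at most 2 gave 1067 of 3725 genes (28.6%) higher and 189 (5.07%) lower, with a median of 0.50. These limits of 10 and 2 were chosen after the values had been seen. Ikzf2 then stood at 1132 against 8.12 CPM and Tox at 1309 against 13.5, and the 7 T cell receptor and CD3 genes summed to 3648 against 101, beside 6197 in the T cells.

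Members with 10 or more Cd3 UMIs held more UMIs of other genes, while S100 medians within a type lay close together. Within the immature-type, the median was 24435 UMIs outside S100a8 and S100a9 (4748 to 120735) in 31 members with 10 or more Cd3 UMIs and 9142 (4086 to 33184) in 87 with at most 2, whereas the S100 UMIs had medians of 4296 (118 to 9744) and 4451 (537 to 9870). Ngp medians were 607 and 567. Within the mature-type, medians outside S100 were 13377.5 (6508 to 48795) in 16 members and 3225 (2220 to 6270) in 25, so that these ranges did not overlap, and S100 medians were 604.5 and 633. The median S100 share of a member's UMIs was 11.6% at 10 or more and 30.6% at 2 or fewer Cd3 UMIs.

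Hashtag counts and doublet scores moved with the Cd3 UMIs. The median Hashtag 2 count was 9639 (1408 to 109148) in the 47 members with 10 or more Cd3 UMIs, 1681.5 (746 to 6366) in the 112 with at most 2, and 4755 in the other DKO-severe cells. The median Hashtag 1 counts were 34 and 37, so both groups carried the DKO tag. Of the 47, 22 (46.8%) were in the top 6% of doublet scores of the matrix, against 1 of the 112. Median genes per cell were 4680 and 2296.5, and mitochondrial UMIs 2.02% and 0.743%, against 3.04% in the other DKO-severe cells. Whether the 47 barcodes hold 1 cell or a pair of cells was not tested.

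**Figure D5:**
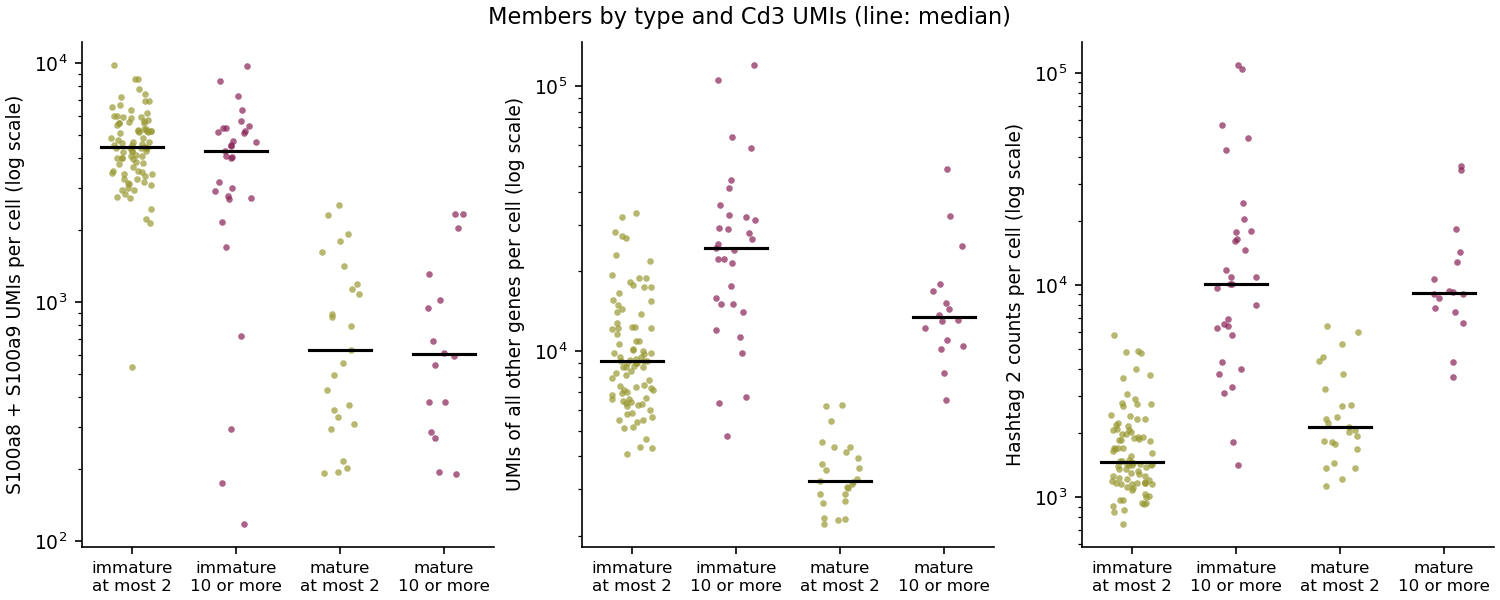
S100a8 and S100a9 UMIs, UMIs of all other genes and Hashtag 2 counts per cell (log axes) in immature-type and mature-type members with at most 2 (87 and 25 cells) or 10 or more (31 and 16 cells) Cd3 UMIs, with lines at the medians. S100 medians lie close together within a type (4451 and 4296, 633 and 604.5), while the other panels stand higher in the cells with 10 or more Cd3 UMIs.

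Most of the 47 members with 10 or more Cd3 UMIs also carried Cd4. Cd4 without Cd8a or Cd8b1 was detected in 31 of 47, Cd8a or Cd8b1 without Cd4 in 4, both in 6 and neither in 6. Among DKO-severe T cells 45.8% had Cd4 alone and 29.4% Cd8a or Cd8b1 alone. Foxp3, the regulatory T cell factor, was detected in 14 of the 47 (29.8%, interval 17.3 to 44.9) and in 0 of the 112 with at most 2 Cd3 UMIs, against 9.12% of the T cells at a median of 8249.5 UMIs per cell, while the 47 had a median of 21498. Cntn5 and Ralyl, genes best known from neurons that were abundant in this DKO-severe library, stood at 590 and 744 CPM in the 47, 62.2 and 16.2 in the 112, 1004 and 1244 in the other DKO-severe cells, and 9.43 and 13.7 in WT cells. Mki67 and Top2a gave 3 or more UMIs in 18 of the 47, all of them immature-type. By type, 31 of 124 immature-type (interval 17.7 to 33.6%) and 16 of 44 mature-type members (22.4 to 52.2%) carried 10 or more Cd3 UMIs, and these intervals overlapped.

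Granulocyte transcripts were also found at trace levels in the rest of the library and in WT cells. S100a8 stood at 36.1 CPM in the other DKO-severe cells and 24.8 in WT cells, and a UMI of S100a8 or S100a9 was found in 39.6% and 32.4% of these cells. The share was 36.9% in the DKO-severe B cells and 39.0% in the T cells, so it differed little between cell types that lack the genes. For every 100 S100a8 UMIs there were 133 S100a9 UMIs and 28.6 Ngp UMIs in the members, 147 and 20.7 in the T cells, 156 and 22.2 in the B cells, and 150 and 31.4 in WT cells. In 125 DKO-severe cells chosen by Lyz2 and Csf1r, the ratios were 30.4 and 2.98. Csf3r did not keep its ratio, with 0.217 UMIs for every 100 of S100a8 in the members. It stood at 7.29 in the T cells, 3.70 in the B cells and 2.05 in WT cells. Since WT and DKO-severe cells shared 1 capture, the trace in WT cells cannot be told apart from RNA released by cells of the other mouse.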

How the data were processed

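TCRβ+ cells of 1 WT and 1 DKO-severe mouse were captured together with the Chromium Single Cell 3′ v3.1 kit. The authors made the deposited matrices with Cell Ranger (7.1.0 in the file header) on mm10, and Seurat is named in the submitters' processing notes. The deposited values are raw UMI counts per gene and barcode, 1 matrix per genotype, with hashtag counts beside them, and no column of values was left unused (0). UMIs were summed over cells and divided by their total (CPM). A gene was tested with 100 or more UMIs over both sides and a mean of 20 CPM or more. It was called at a log2 ratio of 1 or more either way, with fewer than 3 UMIs counted as 3. There are no replicates, so no test was made. Intervals are exact 95% binomial or conditional intervals and cover counting error only. Reference DKO-severe cells were chosen among non-members by marker genes. The monocyte reference had 10 or more Lyz2 UMIs and 1 or more Csf1r UMIs, and many of its cells also carried Cd3 UMIs. T cells had a Cd3 UMI and fewer than 3 Cd79a UMIs and lay outside the monocyte reference. B cells had 3 or more Cd79a UMIs and 1 or more Ms4a1 UMIs. No doublet caller was used to remove cells, because the automatic limit of Scrublet (scanpy 1.11.5) marked 2 DKO-severe and 3 WT barcodes. The top 6% of scores were instead left out as an alternative. Named genes are those of the lists and the 10 highest and 10 lowest ratios of each comparison, leaving out T cell receptor, immunoglobulin, haemoglobin and sex-linked genes. The members, lists and splits were chosen with earlier results of these data known. The ratio script was tested on simulated data.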

Additional observations from a re-analysis of the deposited data

How the results depend on the processing

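There was 1 mouse per genotype and no replicate, so nothing here separates genotype from mouse. No paired analysis was possible because each genotype had 1 sample. Over the alternatives set for them, the number of members ran from 144 (top doublet scores left out) to 180 (a minimum of 20 UMIs) and the immature-type share from 70.8 to 77.7%, while a minimum of 500 UMIs left 127 members. The share of members with a Cd3 UMI was 41.1% after thinning, 41.1% at 2 or more UMIs, 82.1% with any of 6 T cell receptor genes and 28.0% at 10 or more UMIs. Against the other DKO-severe cells, lower genes numbered 2203 with each cell given the same weight, 796 without S100a8 and S100a9 in the total, 905 with 10 CPM added and 2583 for members with at most 2 Cd3 UMIs, and without the filter 6000 were higher and 3938 lower. Between immature-type and mature-type members, 349 were lower without the split and S100 genes in the total, 376 at 2 or fewer Cd3 UMIs, 660 were higher and 3768 lower without the filter, and 184 and 165 without members that had a Cd3 UMI, where fewer genes passed the filter. Ctsg then stood at a log2 ratio of -1.10, because the 0 UMIs of the mature-type count as 3 in a smaller total. Between members with and without a Cd3 UMI, lower genes numbered 82 with equal weights, 101 at 2 or more UMIs against 0, 21 with 10 CPM added and 189 at 10 or more against at most 2, and without the filter 2634 were higher and 715 lower. Over the named genes, 342 values stayed within the counting interval and 237 moved out of it. Alternatives that use at most 2 or 10 or more Cd3 UMIs were chosen after seeing the data. Other causes of these shifts were not tested.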

Other observations

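Other S100 and annexin genes differed among themselves across the split. S100a6 and S100a11 were detected in 43 and 44 of 44 mature-type and in 114 and 124 of 124 immature-type members. Among members with at most 2 Cd3 UMIs they stood at 6338 and 6823 CPM in the mature-type and 2468 and 2403 in the immature-type. Anxa1 was higher in the immature-type of these members (log2 ratio 1.81). S100a8 and S100a9, which chose the members, summed to 198930 CPM in the mature-type and 298603 in the immature-type there, within 2-fold. S100a4 and S100a10, which lymphocytes also make, stood at 12.9 and 33.8 CPM in members with at most 2 Cd3 UMIs and at 536 and 868 in those with 10 or more. The survival genes Bcl2 and Bcl2a1b had the same order, at 8.79 and 4.06 against 253 and 210 CPM.

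Of the 6 genes of the DNA methylation list, 3 were tested across the split, of which Dnmt1 was higher and Tet2 lower in the immature-type, beside 9.02% and 18.4% of all genes tested. Tet2, whose product oxidises methylcytosine, was found in 30 of 44 mature-type members at 144 CPM and in 54 of 124 immature-type members at 41.3 CPM. Dnmt1, the maintenance methyltransferase of dividing cells, was found in 6 of 44 mature-type and 52 of 124 immature-type members, at 16.5 and 59.1 CPM. Tet3 lay within 2-fold at 96.7 and 56.3 CPM. These levels are over members of all Cd3 counts. Among members with at most 2 Cd3 UMIs, 0 of the 6 genes passed the filter, so the differences were not tested there.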
